A study of Rattus norvegicus with 6 samples.

Results

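Txnip and 8 genes of glucose uptake, glycolysis and the hypoxia response were followed in rat spinal cord ependymal stem cells, the label given to cultured neural stem and progenitor cells of the lining of the central canal. The 9 genes were taken by Ensembl ID from count tables of 32883 genes, and all 9 were among the 15919 genes that passed the filter on low counts. Bulk RNA was sequenced from 3 control libraries, of cells kept in neurobasal medium, and 3 libraries of cells given the same medium with 500 uM glutamate, all at day 2. The study asked what a glutamate level that is toxic to neurons does to these cells. Library totals ran from 166567977 to 181352365 counts. The labels do not say whether the libraries of a group came from separate animals or cultures, so the errors given here measure the spread between these libraries, which may be technical. In bulk RNA a lower level per cell and fewer cells with the transcript cannot be told apart.

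The tables hold no gene symbols. The symbol of each ID came with the list of the 9 genes and was not checked against an annotation here. For the same reason the markers of the labelled cell type and the other genes of these pathways were not looked up. The genes were chosen by their roles with the glutamate and control CPM values already known, and Txnip (ENSRNOG00000021201) had been selected on these values as one of the larger falls. The differences between groups are therefore given as descriptions of these 6 libraries, and no support is drawn from how many of the genes were called.

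Cells take up glucose through transporters of the GLUT family, of which GLUT1, encoded by Slc2a1, is the common form in dividing and glial cells. Txnip, the thioredoxin-interacting protein, binds thioredoxin and slows glucose uptake by drawing GLUT1 from the cell surface, and its gene is switched on by sugar phosphates through the transcription factors MondoA and ChREBP. Hexokinase, glyceraldehyde-3-phosphate dehydrogenase, enolase and pyruvate kinase are enzymes of the route from glucose to pyruvate, which lactate dehydrogenase reduces to lactate. When oxygen is short, the transcription factor HIF-1 raises many of these enzymes together with secreted factors such as Vegfa, which drives vessel growth, and Adm, the precursor of the vasodilator peptide adrenomedullin.

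With glutamate, Txnip fell about 4-fold, while Adm and Vegfa rose and the enzyme genes Eno1, Ldha, Pkm and Hk2 rose by smaller amounts. In the fit over all genes, 7 of the 9 were called at an adjusted p below 0.05 (edgeR quasi-likelihood test), 6 as rises and 1 as a fall. Over all genes tested, 27.7% were called, 14.1% as rises and 13.7% as falls. That background rests on the libraries used: 4413 genes were called with all 6. Without control replicates 1, 2 and 3 the count was 5311, 2603 and 5584, when 8, 7 and 6 of the 9 genes were called. Without glutamate replicates 1, 2 and 3 it was 2442, 2420 and 2436, when 6 of the 9 genes were called each time. Slc2a1 and Gapdh were not called. The glutamate and control ranges did not overlap in the same 7 genes, against 46.8% of all genes tested. The glutamate values were the higher ones in 6 of them, against 22.8% of all genes, and the lower ones in 1 (Txnip), against 24.0%. The median log2 fold change was 0.27 over the 9 genes and -0.0093 over all genes tested. The calls of Txnip, Eno1, Pkm, Ldha, Vegfa and Adm were kept under each of 12 alternative settings. These settings refit the libraries on whose values the genes were chosen, so the kept calls are no separate support. Under the filter of 1 CPM in 3 libraries, Adm passed only through its glutamate libraries. Hk2 lost its call in some fits with 1 library left out and with the replicate number as a block. Gapdh gained a call only without control replicate 1.

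**Figure D1:**
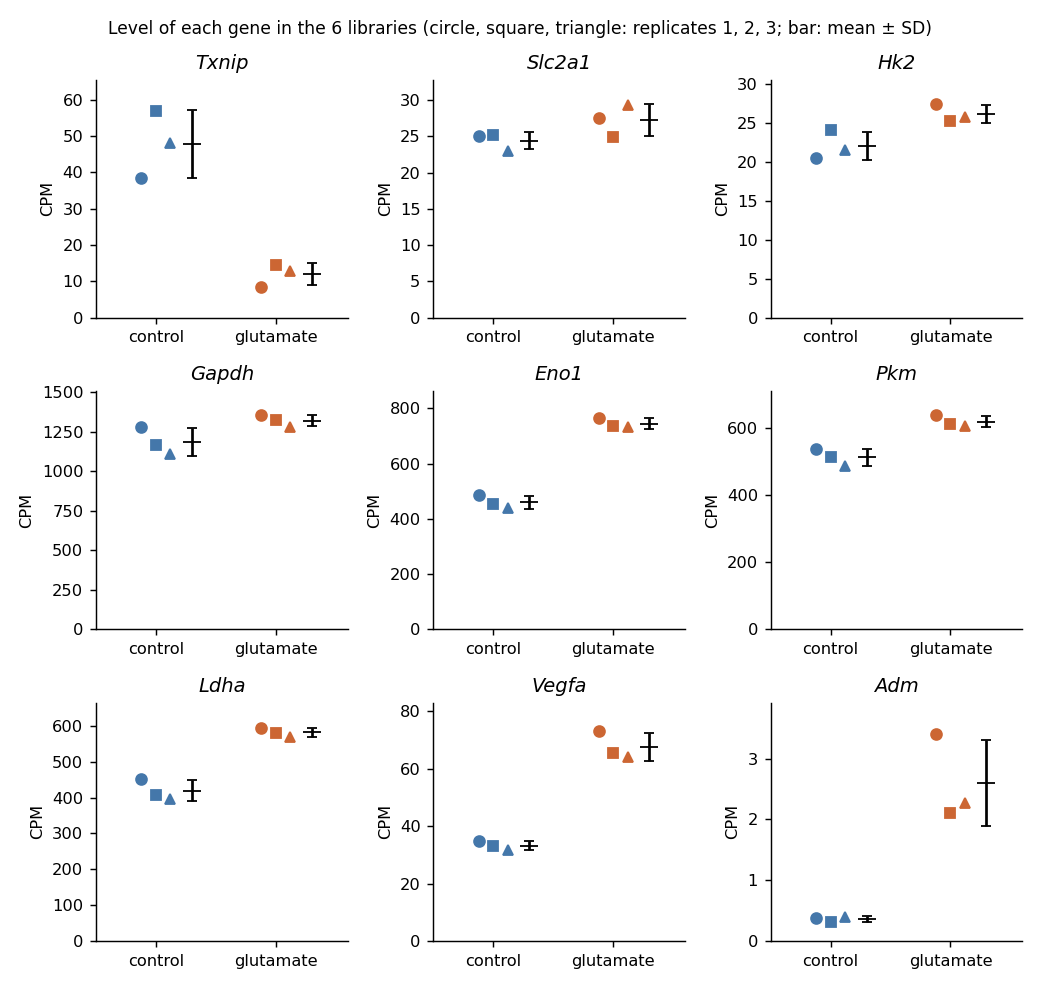
Each panel plots 1 gene in CPM (reads of the gene scaled to the library total, vertical axis from 0) for the 3 control and 3 glutamate libraries, with the mean and SD beside them. The groups are apart in 7 panels, with Txnip lower and 6 genes higher with glutamate, and they overlap for Slc2a1 and Gapdh.

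The upstream sequences of 4 of the genes are shown, among them Adm with the largest rise and Slc2a1 without a call. They are the 250 bases before the gene start from RefSeq (build GRCr8, matched by symbol), and the capitals mark the core letters of the hypoxia response element, ACGTG or GCGTG on either strand. RefSeq windows were matched for 8 of the 9 genes, the other being Txnip, in 10 windows. Of the genes with a window, Hk2, Gapdh, Eno1 and Pkm are not shown. Vegfa had more than 1 window, of which 1 is shown.
Ldha (chr1:106507842-106508091, plus strand): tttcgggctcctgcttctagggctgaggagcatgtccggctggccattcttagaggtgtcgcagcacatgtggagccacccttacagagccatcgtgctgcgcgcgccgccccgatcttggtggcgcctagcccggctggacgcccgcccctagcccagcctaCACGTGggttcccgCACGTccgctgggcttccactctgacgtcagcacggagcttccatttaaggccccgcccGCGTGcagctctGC
Slc2a1 (chr5:138002272-138002521, plus strand): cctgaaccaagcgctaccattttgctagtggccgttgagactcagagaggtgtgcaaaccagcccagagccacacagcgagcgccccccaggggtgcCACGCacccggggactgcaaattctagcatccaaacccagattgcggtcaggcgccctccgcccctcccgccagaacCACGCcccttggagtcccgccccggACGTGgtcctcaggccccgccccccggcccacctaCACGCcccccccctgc
Vegfa (chr9:22452604-22452853, plus strand): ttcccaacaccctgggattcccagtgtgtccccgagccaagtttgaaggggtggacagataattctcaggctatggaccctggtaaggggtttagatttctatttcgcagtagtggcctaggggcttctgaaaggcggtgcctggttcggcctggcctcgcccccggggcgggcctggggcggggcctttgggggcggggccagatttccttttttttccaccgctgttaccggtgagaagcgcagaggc
Adm (chr1:174179950-174180199, plus strand): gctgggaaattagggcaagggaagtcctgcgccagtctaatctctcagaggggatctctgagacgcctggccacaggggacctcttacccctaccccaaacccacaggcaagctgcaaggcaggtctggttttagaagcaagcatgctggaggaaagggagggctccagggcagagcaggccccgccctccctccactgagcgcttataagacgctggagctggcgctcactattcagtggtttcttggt

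The core letters lay in a window of 4 of the 8 genes, Slc2a1, Gapdh, Eno1 and Ldha. Windows run from 250 bases before to 50 bases after the start. Of all 33469 such windows, 41.6% held a core on 1 strand or the other. Such shares are per window, whereas a gene with more than 1 window, as Eno1 and Vegfa had, counted if any held the letters. Ldha had the densest set, in which the E-box CACGTG, 87 bases before the start, counts as ACGTG on both strands. Another ACGTG lies 73 bases before the start. The capitals that end the Ldha line open a match that runs on past the start. CACGTG was found in 6.42% of all windows. Slc2a1, which was not called, held 1 ACGTG and 3 GCGTG matches, whereas none of these letters stood in the windows of Adm and Vegfa, the genes with the largest rises. Nor did they stand in those of Hk2 and Pkm. Of the other motifs searched, CACGAG was found in 1 gene (Eno1), CCAAT in 4 (Slc2a1, Eno1, Pkm and Vegfa) and TATAAA in 2 (Slc2a1 and Gapdh), against 6.59%, 37.5% and 14.2% of all windows. A match of letters describes the window and shows no binding. Bases outside the windows were not searched. The lack of the letters in a window therefore does not show that the gene has no hypoxia response element.

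Txnip, the brake on glucose uptake, was at 38.3, 56.9 and 48.1 CPM in control replicates 1, 2 and 3. With glutamate it was at 8.57, 14.6 and 12.9 CPM. Every glutamate library was thus below every control library, and the lowest control value was 2.62 times the highest glutamate value. The means were 47.77 ± 9.31 CPM and 12.03 ± 3.11 CPM (SD, n = 3 each). This is a 3.97-fold fall (log2 fold change -1.99, SE 0.23) with a 95% confidence interval from 2.69 to 5.87. With the replicate number as a block the log2 fold change was -2.01 and its SE 0.078. Txnip had the lowest log2 fold change of the 6678 genes with a mean between 10 and 100 CPM, and 10 of all genes tested lay lower. Because Txnip was selected on these values as one of the larger falls, neither this rank nor the interval is independent of that choice.

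The Txnip level also varied more between libraries of the same group than most genes did. This spread comes from the same CPM values on which Txnip was selected, so it is not independent of that choice. Its coefficient of variation was 19.5% in control and 25.9% in glutamate libraries. The median over genes between 10 and 100 CPM was 7.09% in control and 3.75% in glutamate libraries. Only 0.210% of those genes varied more than Txnip among the glutamate libraries, and 7.56% did so among the control libraries. In both groups replicate 1 was the lowest and replicate 2 the highest. Set side by side by number, the control value was 4.47, 3.90 and 3.73 times the glutamate value for numbers 1, 2 and 3, although the labels do not say that a number joins libraries.

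Slc2a1 (ENSRNOG00000007284) encodes the transporter GLUT1, on which Txnip acts. It was at 25.0, 25.2 and 23.0 CPM in the control libraries and at 27.5, 24.9 and 29.4 CPM with glutamate. The groups overlapped, because glutamate replicate 2 lay below control replicates 1 and 2. The means were 24.4 ± 1.2 and 27.2 ± 2.2 CPM (SD, n = 3 each). The log2 fold change was 0.16 (SE 0.077), with a 95% confidence interval from -0.014 to 0.33, so that the data allow anything from a ratio of 0.990 to one of 1.26. The Txnip and Slc2a1 transcripts therefore differed in size of change. Control libraries held 1.96 ± 0.38 Txnip reads per Slc2a1 read and glutamate libraries 0.446 ± 0.137 (SD, n = 3 each). GLUT1 protein was not measured here.

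Hk2 (ENSRNOG00000006116), the inducible hexokinase that traps glucose in the cell as glucose-6-phosphate, was at 20.5, 24.0 and 21.5 CPM in the control libraries. With glutamate it was at 27.4, 25.2 and 25.8 CPM. The groups did not overlap, but control replicate 2 came close to glutamate replicate 2. The log2 fold change was 0.25 (SE 0.076), a 1.19-fold rise. This call did not hold without control replicate 3, without glutamate replicate 1, 2 or 3, or with the replicate number as a block. Its log2 fold change under these was 0.23, 0.22, 0.28, 0.26 and 0.25.

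Gapdh (ENSRNOG00000018630), which oxidises glyceraldehyde-3-phosphate and is often used as a reference gene, was at 1281, 1168 and 1107 CPM in the control libraries. With glutamate it was at 1352, 1325 and 1281 CPM. The groups met at the edge, where control replicate 1 and glutamate replicate 3 were alike. The log2 fold change was 0.15 (SE 0.066), with a 95% confidence interval, unadjusted for the number of genes, from 0.0065 to 0.30, and Gapdh was not called. Control replicate 1 differed most from the other libraries of its group (chi-square per gene of 88.3 and 160.3, against 32.0 between control replicates 2 and 3). Without it Gapdh was called, at a log2 fold change of 0.21. Gapdh has many near-identical pseudogene copies in rodent genomes, and how reads shared between copies were counted is not stated by the labels, so its level is uncertain.

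Eno1 (ENSRNOG00000017895), the common form of enolase, rose most among the enzymes. It was at 486, 455 and 440 CPM in the control libraries and at 767, 734 and 733 CPM with glutamate. The lowest glutamate library was 1.51 times the highest control library. The means were 460 ± 24 and 745 ± 19 CPM (SD, n = 3 each), which is 1.62-fold (log2 fold change 0.69, SE 0.058). Of the 2400 genes with a mean of 100 CPM or more, 40 had a higher log2 fold change, and the 95th percentile of that class was 0.47.

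Ldha (ENSRNOG00000013009), the lactate dehydrogenase subunit that favours making lactate, was at 452, 409 and 398 CPM in the control libraries. With glutamate it was at 594, 581 and 571 CPM, above every control library. Its log2 fold change was 0.47 (SE 0.062), or 1.39-fold. Pkm (ENSRNOG00000011329), the pyruvate kinase of most tissues, was at 537, 512 and 486 CPM and at 636, 612 and 606 CPM. The groups lay closer together than for Ldha, at a log2 fold change of 0.27 (SE 0.058) or 1.21-fold. In the class of 100 CPM or more, 117 genes had a higher log2 fold change than Ldha and 296 a higher one than Pkm. Gapdh, Eno1, Pkm and Ldha together took 0.258% ± 0.015 of the counts of control libraries and 0.326% ± 0.008 of those of glutamate libraries (SD, n = 3 each).

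**Figure D2:**
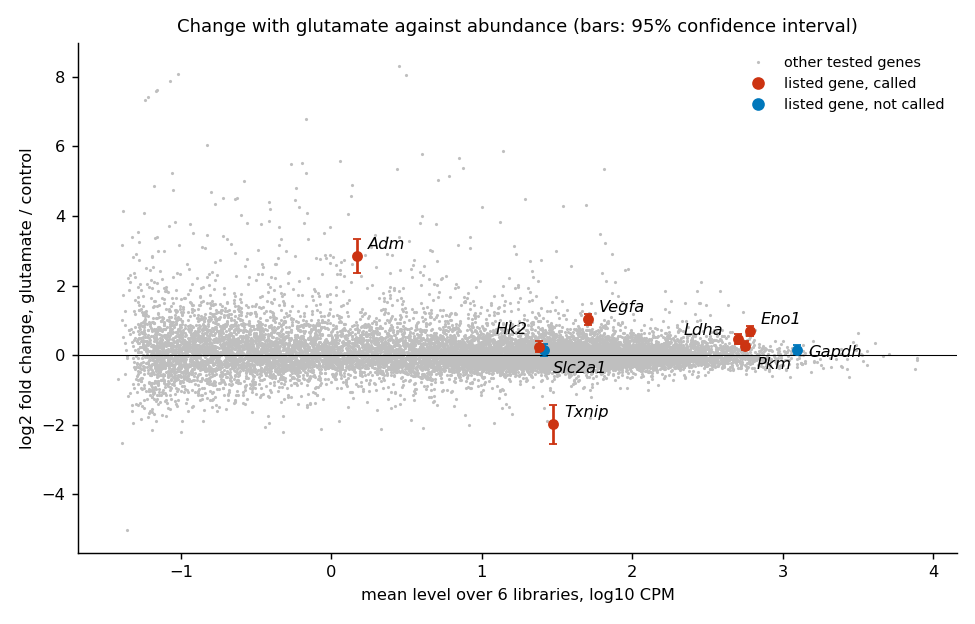
Each grey point is a tested gene, placed by its mean level over the 6 libraries (horizontal axis, log10 CPM) and its log2 fold change with glutamate (vertical axis), and the 9 named genes carry their 95% confidence intervals. Txnip lies below all genes of its abundance range, Adm and Vegfa lie above most, and Gapdh and Slc2a1 lie near 0.

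The enzyme genes did not change in equal measure. Counted per Gapdh read of the same library, which needs no scaling between libraries, Eno1 went from 0.389 ± 0.009 to 0.565 ± 0.009 (SD, n = 3 each). Ldha went from 0.354 ± 0.005 to 0.441 ± 0.004, and Pkm from 0.432 ± 0.011 to 0.469 ± 0.006 (SD, n = 3 each). The groups did not overlap for these 3 genes. The share of all genes without overlap per Gapdh read was not determined, and in CPM it was 46.8% of all genes tested. Hk2 per Gapdh read did overlap, at 0.0187 ± 0.0024 and 0.0198 ± 0.0007, and so did Slc2a1, at 0.0206 ± 0.0010 and 0.0207 ± 0.0021 (SD, n = 3 each). Such a ratio shows unequal change and not which of the genes moved.

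**Figure D3:**
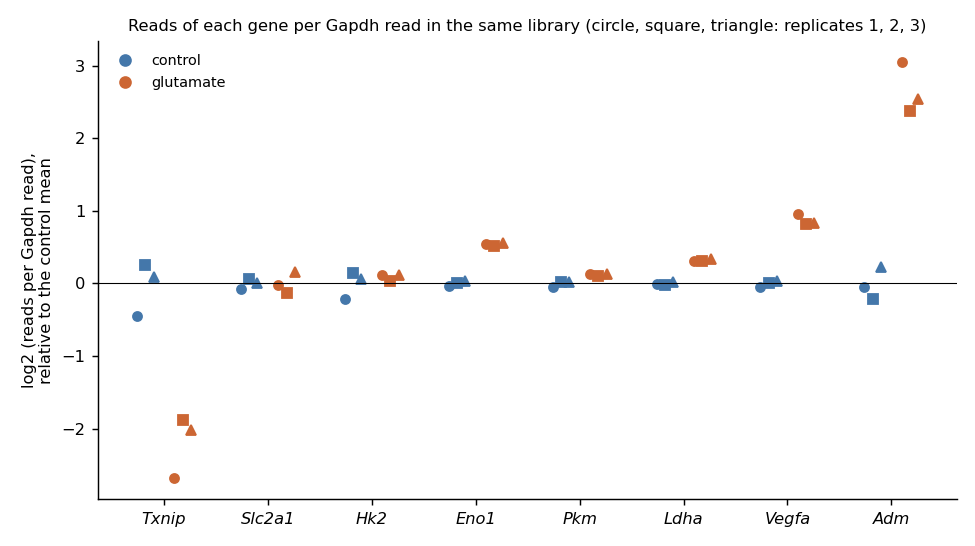
The vertical axis gives the reads of each gene per Gapdh read in the same library, as log2 relative to the control mean, with 1 point per library. Txnip lies lower and Eno1, Pkm, Ldha, Vegfa and Adm lie higher in all 3 glutamate libraries, whereas Slc2a1 and Hk2 overlap.

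Vegfa (ENSRNOG00000019598), the secreted vascular growth factor, doubled. It was at 34.87, 33.04 and 31.65 CPM in the control libraries and at 73.4, 65.5 and 64.2 CPM with glutamate. The lowest glutamate library was 1.84 times the highest control library. The coefficient of variation was 4.87% in control and 7.32% in glutamate libraries, against medians of 7.09% and 3.75% for genes between 10 and 100 CPM. The means were 33.2 ± 1.6 and 67.7 ± 5.0 CPM (SD, n = 3 each), which is 2.04-fold (log2 fold change 1.03, SE 0.071) with a 95% confidence interval from 1.83 to 2.28. Of the 6678 genes between 10 and 100 CPM, 88 had a higher log2 fold change.

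Adm (ENSRNOG00000027030), the adrenomedullin precursor, was weakly expressed and had the largest change of the 9 genes. The control libraries held 68, 55 and 67 reads, or 0.378, 0.306 and 0.394 CPM. The glutamate libraries held 604, 364 and 378 reads, or 3.41, 2.10 and 2.27 CPM. Each glutamate library was at least 5.33 times the highest control library, and glutamate replicate 1 stood above the other two. The log2 fold change was 2.85 (SE 0.22), or 7.21-fold, with a 95% confidence interval from 5.11 to 10.2. Its coefficient of variation among glutamate libraries was 27.4%, and 1.17% of the 2993 genes between 1 and 10 CPM varied more. Because Adm rose more than Vegfa, the Vegfa reads per Adm read went from 93.5 ± 13.9 in control to 27.0 ± 4.9 in glutamate libraries (SD, n = 3 each).

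The 9 genes also differed between libraries of 1 group. Glutamate replicate 1, which had the lowest Txnip level of all libraries, had the highest level among glutamate libraries in 7 of the other 8 genes, the exception being Slc2a1. Among the control libraries, replicate 1 was lowest for Txnip and highest for 5 of the 8 (Gapdh, Eno1, Pkm, Ldha and Vegfa), but it was lowest for Hk2. Control replicate 2 had the highest Txnip level without being lowest for any of these 5, so that the levels did not simply mirror each other. This is a description of 6 libraries, and whether library preparation or the state of the cultures moved with it was not tested. Glutamate replicate 1 differed more from glutamate replicates 2 and 3 (chi-square per gene of 31.3 and 45.4) than these did from each other (19.0). The share of all genes that were highest in a given library was not determined, so these counts have no background beside them.

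Genes whose profile over the 6 libraries was most like that of Txnip were sought by Pearson's r of log2 CPM among the other 10178 genes whose mean reached 5 CPM. The closest were ENSRNOG00000001243, at r = 0.999, and ENSRNOG00000003541, at r = 0.998. The r takes no account of size: the first had a log2 fold change of -0.14 (SE 0.053), went from 61.3 ± 1.0 to 55.4 ± 1.3 CPM (SD, n = 3 each) and was not called. The second fell by 0.28 (SE 0.064) on the log2 scale, from 26.5 ± 1.0 to 21.8 ± 0.8 CPM (SD, n = 3 each). An r of 0.9 or more was found for 898 genes (8.82%) and one of -0.9 or less for 867 genes (8.52%). Among the latter were Eno1 at -0.980, Pkm at -0.965, Ldha at -0.974 and Vegfa at -0.984. Slc2a1 at -0.719, Hk2 at -0.806 and Gapdh at -0.834 were not among them. Adm, with a mean below 5 CPM, was not compared. The r spans both groups and so includes the difference between them, on which Txnip was selected. It is therefore no separate support that these genes move with Txnip.

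**Figure D4:**
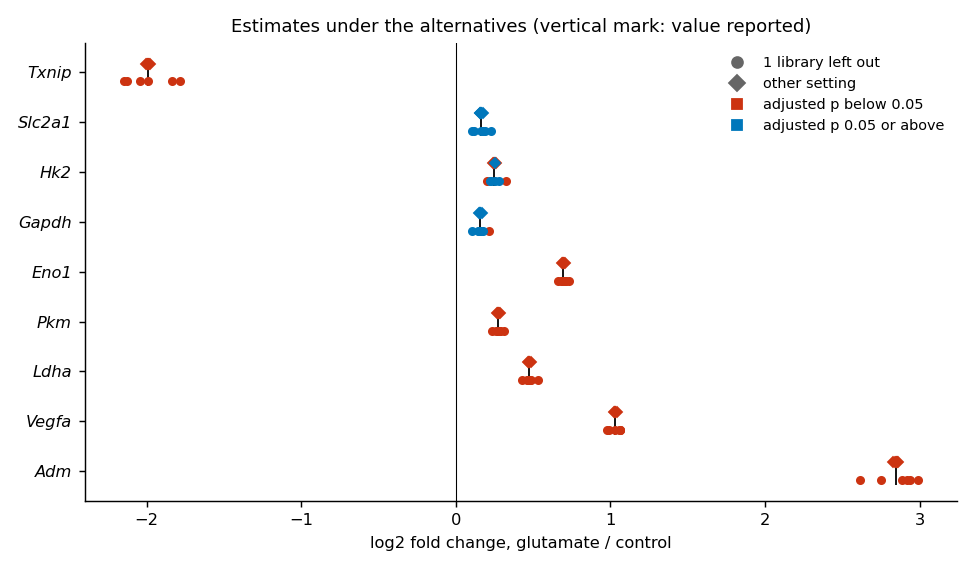
The log2 fold change of each gene (horizontal axis) is plotted as reported (vertical mark), with 1 library left out (circles) and under the other settings (diamonds), in red at an adjusted p below 0.05 and in blue otherwise. Hk2 and Gapdh show both colours, while the estimates of the other genes keep 1 colour.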

How the data were processed

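For each library the authors deposited unnormalized counts by Ensembl gene ID, per the file headers. Per the submitters' processing notes, the tools were Trim Galore (0.6.5), SAMtools, STAR (2.7.8a) and featureCounts (2.0.1), with rat build rn6. What annotation, strand setting and handling of shared reads were used is not given in the sources used here.

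The test was that of edgeR 4.0.16 (R 4.3.3): filterByExpr (minimum count 10, minimum total 15), TMM scaling, robust quasi-likelihood fits of glutamate against control over the 6 libraries, and Benjamini-Hochberg adjustment over all 15919 genes tested. The standard error is the log2 fold change divided by the square root of F. CPM used TMM-scaled library sizes, at which 1 CPM equals 166.6 to 180.0 reads. The script was tested on simulated data. Same-group libraries differed by far more than sampling noise (chi-square per gene 19.0 or more), so none was merged.

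All 9 genes are named, with the 2 IDs most like Txnip. The members and lists were chosen with earlier results of these data known. Alternatives were RLE or total-count scaling, DESeq2 1.42.0, other filters, the replicate block and leaving out each library. The planned pathway lists and cell type markers were not evaluated, and levels were not compared between genes, because the files pair IDs with neither symbols nor lengths.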

Additional observations from a re-analysis of the deposited data

How the results depend on the processing

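Each of the 9 genes kept the sign of its log2 fold change under all 12 alternatives, though in the 7 genes whose groups did not overlap leaving out a library could hardly turn it. Txnip ran from -2.15 to -1.79, Eno1 from 0.66 to 0.73, Ldha from 0.43 to 0.53, Pkm from 0.23 to 0.31, Vegfa from 0.98 to 1.06 and Adm from 2.61 to 2.99, and these 6 genes were called in each. Slc2a1 (0.10 to 0.23) was called in none. All alternatives reuse the libraries on whose values the genes were chosen, so the kept calls are no separate support. With 1 library left out, Hk2 ran from 0.20 to 0.32 and Gapdh from 0.10 to 0.21. The adjusted p of Hk2 (edgeR, except under DESeq2) ran from 0.0237 to 0.133 over its alternatives. Gapdh was called only without control replicate 1 (edgeR adjusted p = 0.00313, against up to 0.252 in the others). The count of the 9 genes called was 6 to 8. Leaving out 1 library gave 2420 to 5584 called genes over the whole table, with 1397 to 2921 rises and 945 to 2663 falls. It was 2603 without control replicate 2 and 2442, 2420 and 2436 without glutamate replicates 1, 2 and 3; the cause was not tested. The replicate block called 4553 genes, of which 4108 were among the 4413 called without it. Under the block Hk2 (log2 fold change 0.25, edgeR adjusted p = 0.0535) lost its call, and no other call among the 9 genes changed. Same-numbered deviations correlated at 0.101, -0.024 and 0.135, and different-numbered ones at -0.161 to 0.059. These values do not settle whether the numbers pair the libraries. The alternatives for the pathway lists and for levels per length were not run. Depth limits Adm most, with 55 to 68 reads in the control libraries.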
